A study of Mus musculus with 8 samples.

Results

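Kidney and liver of male mice were compared on 5 arrays, 3 of kidney and 2 of liver, out of the 8 arrays of a study of lead acetate in drinking water. The kidney arrays were 1 control (distilled water), 1 low dose (100 mg/L lead acetate) and 1 high dose (1000 mg/L), and the liver arrays were 1 control and 1 high dose, all after 3 weeks. The members were chosen by tissue alone, so a kidney mean spans all 3 doses and a liver mean spans control and high dose. A low-dose liver was not analysed here, and the 3 brain arrays of the study entered only where stated. The labels give no strain or age. They do not say whether each array holds 1 mouse or a pool, nor whether a kidney and a liver came from the same mouse. With 1 array per tissue and dose, the p-values below measure the spread between these arrays, which includes any effect of dose.

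The liver makes most proteins of the blood plasma, turns surplus amino nitrogen into urea, makes bile acids and oxidises and conjugates foreign compounds. The kidney filters the blood and takes back water, salts, sugars, amino acids and small proteins along the nephron, a tube whose segments each carry their own transporters. Both organs make glucose. The series names transporters as its subject, and these are the proteins through which metals and their carriers cross epithelia.

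Levels are log2 values of the scanner's processed signal relative to the 75th percentile of each array, and a difference is kidney minus liver on that scale. A value of 1 is 2-fold and a negative value means that liver was higher. A gene was called different at a Benjamini-Hochberg adjusted p under 0.05 from limma with a difference of at least 1. Genes enter if their probe was well above background on all arrays of at least 1 of the tissues. The direction of a called gene seen in a single tissue was fixed by this filter. Counts and medians of gene groups are therefore taken over genes well above background on all 5 arrays. A gene that was not well above background on any array of one tissue is given as at least N-fold. That bound sets the mean of the brighter tissue against the mean, over the other tissue's arrays, of that probe's value or, where it is higher, the array's lowest level among probes well above background.

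The liver arrays carried less signal. Their 75th percentile was 303 and 311 against 514 to 547 on the kidney arrays, and 53.4% and 54.0% of spots were well above background against 58.5% to 61.0%. The 100 brightest probes held 25.9% and 26% of the liver signal and 20.2% to 21.0% of the kidney signal. All 5 arrays lay on 1 slide. Within a tissue, arrays correlated at 0.9918 to 0.9953 across probes, and between the tissues at 0.7599 to 0.7663. All 10 kidney-defining genes were well above background on each kidney array, at median levels of 5.29 to 5.4, and 4 of 10 on each liver array, at -3.60 and -4.41. All 10 liver-defining genes were well above background on both liver arrays, at 10.09 each, and 6, 6 and 7 of 10 on the control, low-dose and high-dose kidney arrays.

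Some kidney arrays stood apart in genes of other tissues. The high-dose kidney had a median of -1.33 over the liver-defining genes, against -2.64 in the control and -2.76 at the low dose. The unlogged levels of these genes, added up and given as log2, were lowest there, at 8.01 against 8.38 and 8.22. The sperm-formation genes of the high-dose kidney had a median of 0.03, against -3.24 and -3.85. The control kidney had adrenal markers at a median of -0.91, against -4.06 and -4.11 in the other kidneys. Its fat markers, added up as unlogged levels and then given as log2, came to 5.06, against 4.76 and 4.48. On the same scale, markers of the urothelium, the lining of the urinary tract, came to 0.38 in the control kidney. They came to 1.93 and 1.97 in the exposed kidneys and to 1.72 and 1.81 in control and high-dose liver. The part of these differences in the results was not tested. The medians of plasma proteins, apolipoproteins, coagulation factors, complement, conjugation enzymes and sperm genes are also given without the high-dose kidney. Of the adrenal, fat and urothelium markers, only single genes are given without the control kidney.

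Kidney and liver differed in 7503 of 21812 genes tested, or 34.4%. Kidney was higher for 3853 genes (17.7%) and liver for 3650 (16.7%). Among the 18179 genes well above background on all 5 arrays, 2117 (11.6%) were higher in kidney and 2730 (15%) higher in liver, with a median difference of -0.21. These shares of 11.6% and 15% are the background for the counts of gene groups below. Liver held more of the very large differences among the 18179 genes. There 129 were higher in liver by at least 6 and 68 by at least 8, against 58 and 19 in kidney. A further 1503 called genes were well above background on the kidney arrays only and 532 on the liver arrays only, and their filter fixed their direction. Over all genes tested, 2166 were called higher in kidney by at least 2 and 1712 in liver. The lowest level well above background was -3.47 and -3.65 on the liver arrays and -4.07 to -4.34 on the kidney arrays, and the part of this difference was not tested. In bulk tissue, fewer cells of a type and less RNA per cell cannot be told apart, and this holds for every difference below.

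**Figure D1:**
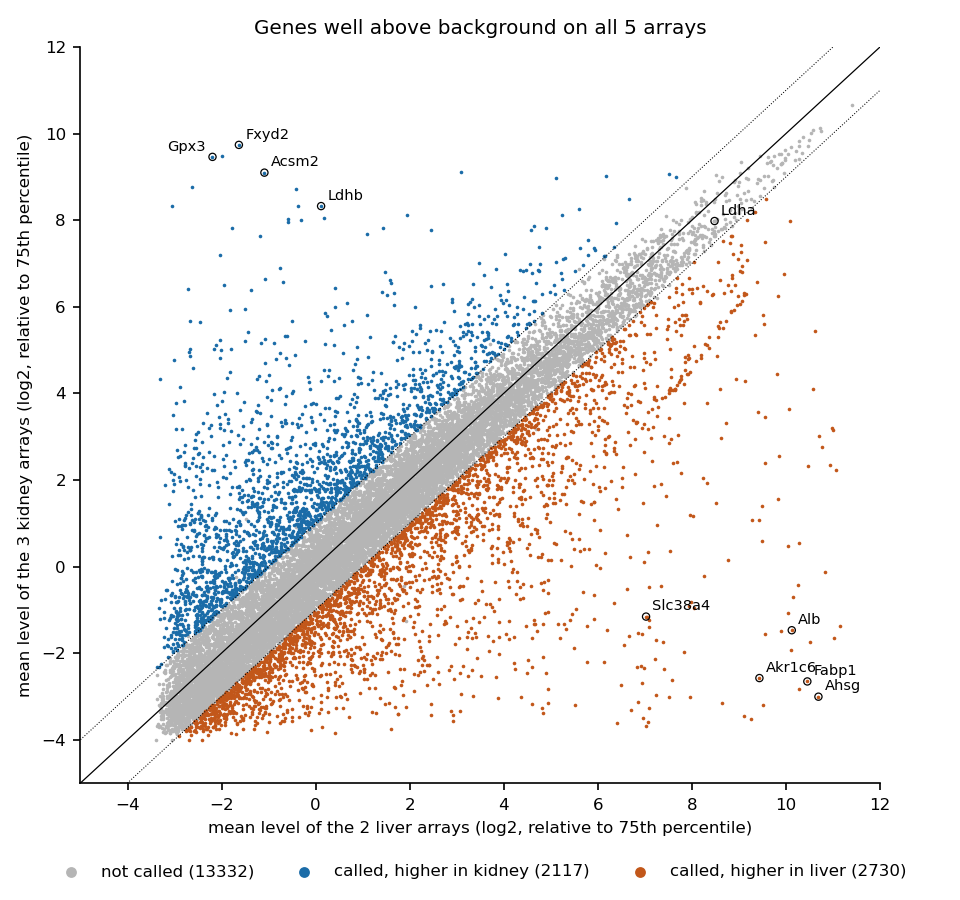
Mean level of each gene in the 2 liver arrays (horizontal, log2 relative to the 75th percentile) against the 3 kidney arrays (vertical), for the 18179 genes well above background on all 5 arrays. The solid line marks equal levels and the dotted lines a difference of 1; 2117 genes called higher in kidney are blue, 2730 called higher in liver are orange, and the grey cloud holds the 13332 genes not called.

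The direction also held within each dose. Control kidney against control liver had the same sign as the mean over doses for 7502 of the 7503 called genes, and 92.6% of them were at least 2-fold apart in that pair. High-dose kidney against high-dose liver had the same sign for 7503, with 93.7% at least 2-fold apart. The exception was the gasdermin Gsdmc2, with -0.07 at control and 2.92 at the high dose, a gene singled out after its value was seen. These pairs are parts of the comparison itself and give no further test.

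The genes higher in liver by the most encode proteins that hepatocytes secrete or use to bind and process lipids. Ahsg encodes fetuin-A, a plasma glycoprotein that keeps calcium phosphate in solution. Its level was -3.42, -3.56 and -2.03 in control, low-dose and high-dose kidney and 10.72 and 10.66 in control and high-dose liver. The difference was -13.70 (SE 0.44, adjusted p = 6.5e-07), and the high-dose kidney was the highest of the kidneys. Fabp1, the liver fatty acid binding protein, stood at -3.28, -2.85 and -1.84 against 10.43 and 10.48, a difference of -13.11 (SE 0.38, adjusted p = 4.26e-07). Itih4 of the inter-alpha-trypsin inhibitor family differed by -12.79, with -7.53 at a second probe, and the carboxylesterase gene Ces3a by -12.72. The major urinary protein genes Mup1, Mup21 and Mup2, which code for pheromone carriers that the male mouse liver sends through the kidney into urine, differed by -12.68, -12.51 and -12.25. Mup genes are near-identical copies, as are the Cyp3a41 pair (Cyp3a41a at -12.58) and the Serpina3 cluster (Serpina3m at -12.02), so these probes can report several copies. The aldo-keto reductase gene Akr1c6 differed by -12.01. In all 10 genes the high-dose kidney was the highest of the kidneys, by the least in Akr1c6.

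In kidney the largest differences belonged to tubule enzymes, secreted enzymes and ion-transport subunits. Gpx3 encodes the plasma glutathione peroxidase, a selenoprotein made in the proximal tubule. It stood at 9.48, 9.44 and 9.47 in control, low-dose and high-dose kidney and at -2.29 and -2.09 in liver, a difference of 11.66 (SE 0.07, adjusted p = 2.69e-09). Miox, the enzyme that opens the inositol ring, stood at 9.57, 9.51 and 9.36 against -1.84 and -2.13, a difference of 11.46. The kidneys lay close together for both genes. Next were the nuclease gene Dnase1 (11.40), the trypsin inhibitor gene Spink1 (11.38), the sodium pump subunit Fxyd2 (11.37) and the medium-chain acyl-CoA synthetase Acsm2 (10.19). The kallikreins Klk1 (9.59) and Klk1b5 (9.12), proteases of a cluster of close copies, the potassium channel Kcnj16 (9.22) and the growth factor precursor Egf (9.12, other probes 3.03 to 6.71) completed the group.

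**Figure D2:**
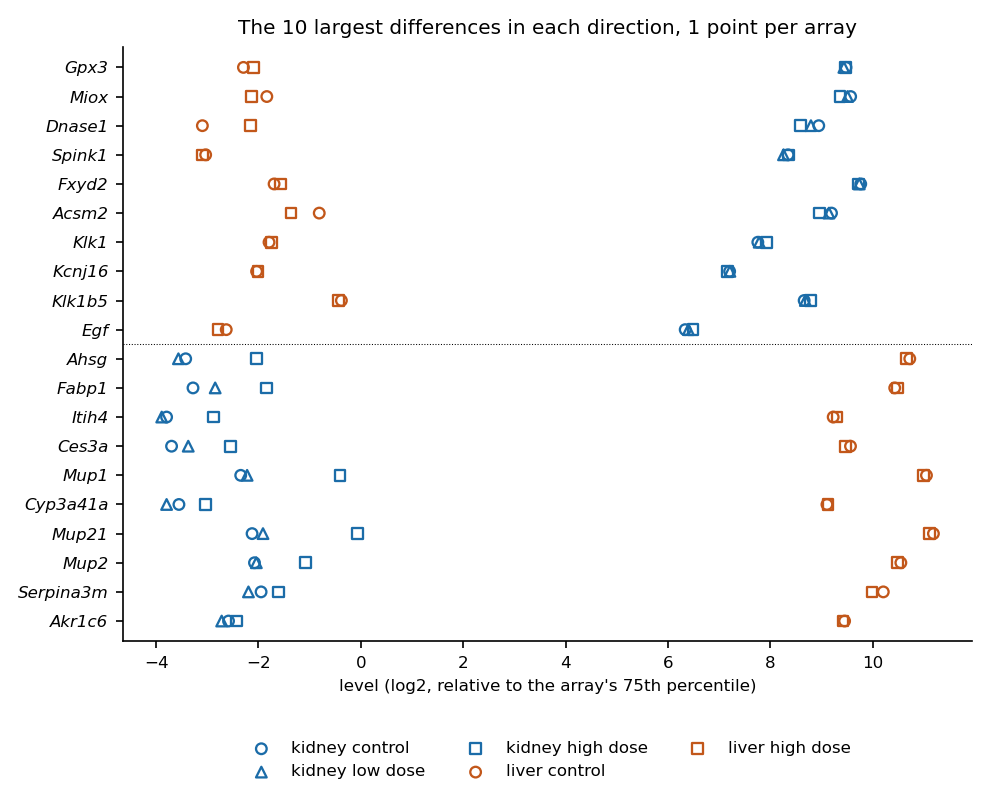
Level on each array (log2 relative to the 75th percentile) of the 10 genes with the largest difference in each direction, 1 symbol per array, kidney in blue and liver in orange. The 20 genes were chosen among genes whose tissues do not overlap, as was so for 18173 of the 21812 genes tested. For the liver genes in the lower panel the high-dose kidney (blue square) lies to the right of the other kidneys.

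Other genes were bright in one tissue and at background in the other. Kap, the kidney androgen-regulated protein of the proximal tubule, stood at 10.24, 10.19 and 10.06 in kidney and was not well above background in liver, at least 13570-fold higher (adjusted p = 2.06e-09). Umod, which encodes uromodulin, a protein of normal urine, was at least 3450-fold higher. The cadherin gene Cdh16 was at least 2768-fold higher and Cltrn, a partner of amino acid carriers, at least 2764-fold. A second Cdh16 probe, seen on all 5 arrays, gave 0.06. In liver, Uox, the urate oxidase that rodents keep, stood at 8.47 and 8.52 and was at least 6712-fold higher (adjusted p = 1.27e-06). The secreted protein gene Wfdc21 was at least 6439-fold higher, Apoa1, the main protein of high density lipoprotein, at least 5658-fold, and Agxt, a peroxisomal aminotransferase that clears glyoxylate, at least 4538-fold.

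The promoters of 4 of these genes are shown because they bear the letters of factors known from liver promoters, or a TATA element. Each is the 250 bases before the start in RefSeq's promoter table (GRCm38.p6), from 5′ to 3′ on the gene's strand, with motif matches in capitals. Ahsg lies at chr16:22891765-22892014 (+) and Fabp1 at chr6:71199629-71199878 (+). The window of Kap is chr6:133853668-133853917 (-) and that of Miox chr15:89334223-89334472 (+).
Ahsg: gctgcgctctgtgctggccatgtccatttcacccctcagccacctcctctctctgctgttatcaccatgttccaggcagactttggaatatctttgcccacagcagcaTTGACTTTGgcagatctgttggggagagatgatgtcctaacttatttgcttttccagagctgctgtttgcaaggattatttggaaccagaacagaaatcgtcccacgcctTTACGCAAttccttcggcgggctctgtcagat
Fabp1: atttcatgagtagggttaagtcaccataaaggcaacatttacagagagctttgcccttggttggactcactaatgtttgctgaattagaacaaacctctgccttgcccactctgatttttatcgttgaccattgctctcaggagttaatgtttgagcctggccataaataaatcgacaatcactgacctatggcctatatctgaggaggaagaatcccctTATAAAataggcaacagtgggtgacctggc
Kap: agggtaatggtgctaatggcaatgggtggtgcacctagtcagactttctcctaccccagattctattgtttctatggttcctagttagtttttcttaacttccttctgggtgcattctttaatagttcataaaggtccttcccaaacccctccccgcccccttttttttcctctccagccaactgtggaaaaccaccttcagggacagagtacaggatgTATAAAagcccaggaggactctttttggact
Miox: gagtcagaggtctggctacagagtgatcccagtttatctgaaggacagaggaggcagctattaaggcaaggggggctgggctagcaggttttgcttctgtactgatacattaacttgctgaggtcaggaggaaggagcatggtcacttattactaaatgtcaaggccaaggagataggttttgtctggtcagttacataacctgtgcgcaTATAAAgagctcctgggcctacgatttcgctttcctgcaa

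Ahsg holds TTGACTTTG, the reverse strand of the letters of HNF4 (the factor encoded by Hnf4a), CAAAGTCCA, with 1 mismatch, and TTACGCAA, the C/EBP letters TTGCGCAA with 1 mismatch. Fabp1, Kap and Miox carry TATAAA 30, 31 and 40 bases before the start. Searched on both strands (TATAAA on the gene's strand only), HNF4 letters with up to 1 mismatch were in 6.6% of the 12877 genes tested that have a promoter in the table, and in 7.09% of all 27025 genes in it. They were in 9.70% of 2133 genes higher in liver and 6.67% of 2502 higher in kidney. C/EBP letters with up to 1 mismatch were in 6.03% of genes tested, 6.38% of liver-higher and 5.08% of kidney-higher genes (5.17% of all in the table). TATAAA was in 5.29%, 7.64% and 4.88% (8.12% of all in the table). A match describes these letters only, and 4635 of the 7503 called genes had a promoter in the table.

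Proteins of the blood plasma were higher in liver throughout. All 20 plasma carriers and protease inhibitors seen on all 5 arrays were higher in liver, with a median of -8.54, where 15% of all such genes were called in that direction. Albumin, Alb, stood at -1.85, -1.95 and -0.62 in kidney and 10.12 and 10.13 in liver, a difference of -11.60 (adjusted p = 7.62e-07), and another probe gave -13.36. Transferrin, Trf, which carries iron, stood at 2.11, 2.23 and 2.62 against 10.49 and 10.45, and differed by -8.15. The high-dose kidney was the highest kidney for both genes. The smallest difference of the group was that of the copper oxidase gene Cp (-5.34, other probes -4.46 to 0.55), at 1.22, 1.16 and 3.17 in kidney. Without the high-dose kidney the group median was -8.75. The median level over all 25 listed genes was -1.15, -1.59 and -1.23 in control, low-dose and high-dose kidney. By that median the high-dose kidney was not the highest. By the sum of unlogged levels, given as log2, it was, at 6.97 against 5.37 in the control and 5.30 at the low dose.

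The apolipoproteins, coagulation factors and complement followed. All 11 apolipoprotein and lipoprotein assembly genes were higher in liver (median -6.89, or -7.25 without the high-dose kidney), among them Apob (-9.0), Apoc1 (-8.82), Apoe (-5.16) and the assembly factor Mttp (-3.86). All 10 coagulation genes were (median -6.61, or -6.73 without the high-dose kidney), and 8 of 10 with quantile normalization, with the fibrinogen chains Fgg (-11.12) and Fga (-9.34), plasminogen, Plg (-8.42), and the smallest, F13b (-1.06). Prothrombin, F2, was well above background in liver and in the high-dose kidney alone, at -5.42, -6.4 and -1.0 in kidney against 9.05 and 9.04. All 17 complement genes were higher in liver (median -5.42, or -5.58 without the high-dose kidney), such as the lectin Mbl2 (-10.20), C9 of the pore (-10.72) and the central component C3. C3 stood at 3.1, 2.89 and 6.31 in kidney against 10.53 and 10.63, with the high-dose kidney far above the others. Going the other way, Cfd, the protease that starts the alternative pathway and is best known from fat cells, stood at 5.0, 4.77 and 4.37 in kidney and was at least 310-fold higher there. Fat markers were brighter in kidney too, and their part in this result was not tested. Not every gene above was highest in the high-dose kidney: Apob stood at -0.38, -0.57 and -1.90 in control, low-dose and high-dose kidney.

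**Figure D3:**
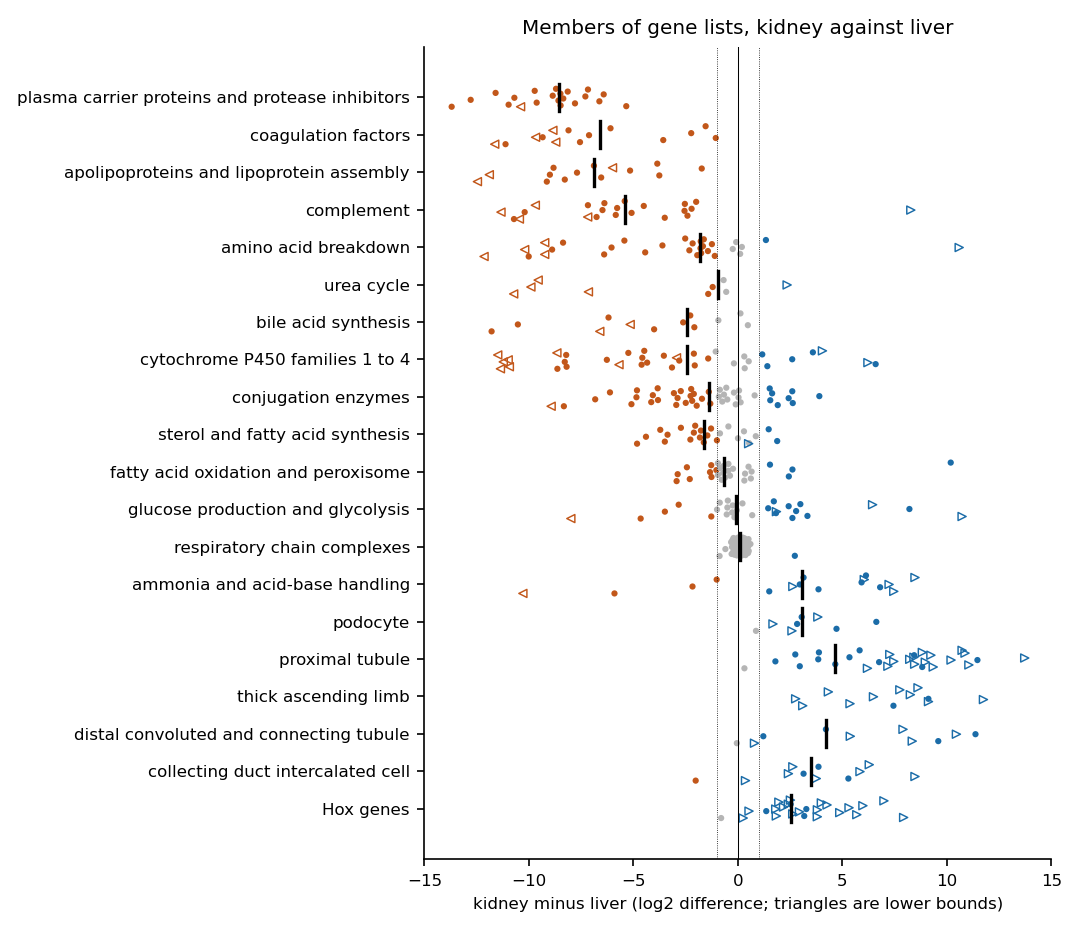
Kidney minus liver difference (log2) for members of 20 gene lists. Dots are genes well above background on all 5 arrays (blue, called higher in kidney; orange, called higher in liver; grey, not called), black bars their median where 3 or more, open triangles are bounds for genes at background in one tissue, and members seen on only some arrays of the dimmer tissue are left out. Plasma proteins, coagulation factors and apolipoproteins lie left of -1, nephron segments lie mostly right of 1, and 73 of 74 respiratory chain genes lie between the dotted lines at -1 and 1.

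Enzymes that handle foreign compounds were divided, with more on the liver side. Among 26 cytochrome P450 genes of families 1 to 4 seen on all 5 arrays, 16 were higher in liver and 5 in kidney (median -2.46). Liver had Cyp1a2 (-9.17), Cyp2f2 (-8.64) and the alcohol-inducible Cyp2e1, which was bright in both tissues at 8.27, 8.10 and 7.59 against 10.02 and 10.17 (-2.11). Cyp2c50, Cyp3a25 and Cyp2a12 were not well above background in kidney and were at least 2637-, 2400- and 2883-fold higher in liver. The kidney members were led by the fatty acid hydroxylase Cyp4b1, at 7.75, 7.72 and 7.56 against 0.90 and 1.26 (6.59), and Cyp2s1 (3.59). Cyp2c55 (2.60) has a second probe at -3.59, and Cyp2j13 (1.41) has others at 5.30 to 11.76. Cyp2j11, seen on the kidney arrays only, was at least 74.7-fold higher there.

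Of 43 conjugation enzymes, 23 were higher in liver and 8 in kidney (median -1.39, or -1.63 without the high-dose kidney). Conjugation attaches glutathione, glucuronic acid, sulfate or acetyl groups so that a compound can be excreted. In liver the sulfotransferase Sult2a8 (-8.33), the glucuronosyltransferase Ugt2a3 (-6.83) and the glutathione transferases Mgst1 (-6.12) and Gsta3 (-4.86) were higher, and Ugt2b1 by at least 490-fold. Gsta3 stood at 3.81, 3.99 and 5.03 in kidney against 9.17 and 9.10. Kidney had more of Sult1c2 (3.90), Gstm5 (2.63), the flavin monooxygenase Fmo2 (2.60) and Nat8 (2.43), the acetyltransferase that completes mercapturic acids. Bile acid synthesis had 7 of 10 genes higher in liver and 0 in kidney (median -2.45). Cyp7a1, the rate-limiting enzyme, was at 0.52 and 1.35 in liver and at least 35.7-fold higher there, and Slc27a5, which activates bile acids, differed by -11.79. The racemase Amacr (0.48), Acox2 (-0.93) and the bile acid receptor Nr1h4 (0.12) were not called.

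Amino acid breakdown lay mostly in liver. Among 25 genes seen on all 5 arrays, 20 were higher in liver and 1 in kidney (median -1.79). Tryptophan dioxygenase, Tdo2, stood at -3.28, -3.49 and -3.17 against 6.89 and 6.51 (-10.01), tyrosine aminotransferase, Tat, differed by -8.37, and Hpd of the same pathway by -5.43. Serine dehydratase, Sds, seen in liver only, was at least 607-fold higher. The D-amino acid oxidase gene Dao went the other way, at 7.03, 7.06 and 6.99 in kidney and at least 1543-fold higher there, and D-aspartate oxidase, Ddo, was higher in kidney by 1.34.

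The urea cycle was split by step. Cps1, Otc and the activator synthase Nags, which form and load carbamoyl phosphate, were seen in liver only and were at least 754-, 960- and 142-fold higher. Arg1, the arginase that releases urea, was at least 1699-fold higher in liver, while Arg2, the mitochondrial arginase, was at least 5.12-fold higher in kidney. Arg2 stood at -1.82, -1.65 and -0.15 in kidney. The middle steps were bright in both tissues: Ass1 stood at 8.09, 7.90 and 8.10 in kidney and 8.67 and 8.75 in liver (-0.68), and Asl differed by -0.56. Neither reached a 2-fold difference. The kidney is known to make arginine through these 2 enzymes.

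Ammonia handling had members on both sides. Of 10 ammonia and acid-base genes seen on all 5 arrays, 7 were higher in kidney and 3 in liver (median 3.05). Gls2, which releases ammonia from glutamine, was at 6.11 and 6.03 in liver and at least 1252-fold higher there. Kidney had more of the carbonic anhydrases Car2 (6.81) and Car15 (5.92). The ammonia channel Rhcg stood at 4.21, 4.22 and 4.32 in kidney and was well above background on 1 liver array (7.12). Liver had more of the glutamine carrier Slc38a3 (-5.91), glutamate dehydrogenase, Glud1 (-2.17, other probes -1.98 to -0.62), and glutamine synthetase, Glul (-1.01). Glul fell under the 2-fold threshold with quantile normalization (-0.57), with normexp and quantile normalization (-0.50), with the mean of its probes (-0.94), without the high-dose kidney (-1.0) and without the high-dose liver (-0.95).

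In glucose production and glycolysis 9 of 24 genes were higher in kidney and 4 in liver. The median was -0.11, but 0.73 with quantile normalization, 0.59 with normexp and quantile normalization and 0.17 with the mean of probes, so the list has no settled side. Lactate dehydrogenase B, Ldhb, stood at 8.42, 8.26 and 8.30 in kidney and 0.06 and 0.18 in liver (8.21, adjusted p = 4.47e-09). Ldha stood at 8.10, 7.99 and 7.85 against 8.57 and 8.40 (-0.50) and was not called. Pyruvate kinase was divided, with Pkm at 2.99 and Pklr at -3.49. Of the phosphofructokinases, Pfkp differed by 3.33 and Pfkl (-0.05) was not called. Aldoa, which cleaves fructose bisphosphate, differed by 1.83. The glucose-making enzymes were closer: Pck1 differed by -1.27, G6pc by -1.0 and Fbp1 by -0.48, of which Pck1 alone was called.

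**Figure D4:**
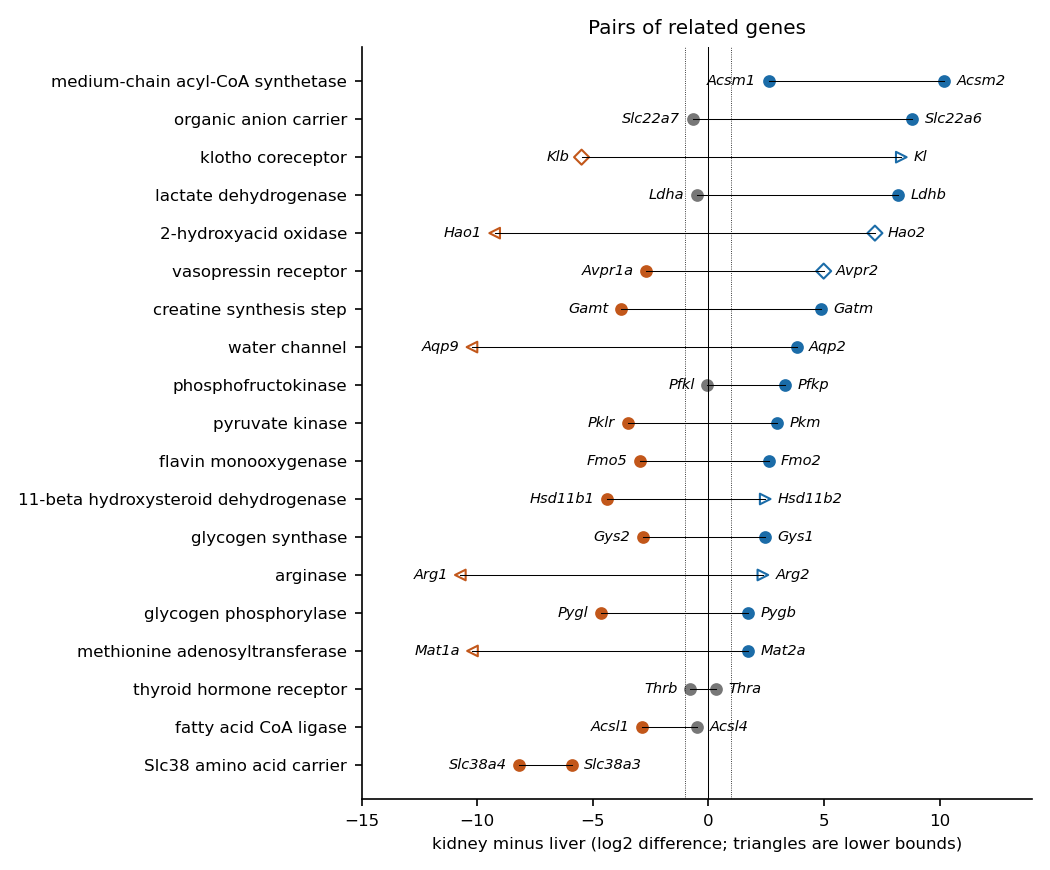
Kidney minus liver difference (log2) of 19 pairs of related genes, 1 pair per row. Filled circles were seen on all 5 arrays (grey, not called), open triangles are bounds for genes at background in one tissue, and diamonds were seen on only some arrays of the dimmer tissue; pyruvate kinase, glycogen synthase and the klotho coreceptors reach past 1 on both sides, and both Slc38 carriers lie on the liver side.

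Of the 19 pairs shown, 12 had 1 gene called higher in each tissue and 7 did not. Over all genes tested, 17.7% were called higher in kidney and 16.7% in liver. Among the 12, both genes were seen on all 5 arrays only for pyruvate kinase, glycogen synthase, glycogen phosphorylase, creatine synthesis and flavin monooxygenase. The other divided pairs hold a gene that entered through its brighter tissue alone, so its direction was not free. Glycogen synthase had Gys1 at 2.43 and Gys2 at -2.83, and glycogen phosphorylase had Pygb at 1.72 (0.91 and not called with normexp and quantile normalization) and Pygl at -4.65. Creatine synthesis was divided between its steps: Gatm, which makes guanidinoacetate, stood at 4.16, 4.13 and 4.07 in kidney against -0.70 and -0.81 (4.88), and Gamt, which methylates it, at 2.72, 2.70 and 2.37 against 6.4 and 6.36 (-3.79). Methionine adenosyltransferase had Mat2a at 1.72 and Mat1a at least 1180-fold higher in liver. The hydroxyacid oxidases had Hao2 at 7.21 and Hao1 at least 607-fold higher in liver. For corticosteroids, Hsd11b2, which inactivates them in the collecting duct, was at least 5.50-fold higher in kidney, and Hsd11b1, which reactivates them, differed by -4.39. Among the 7 pairs that were not divided, 3 had a kidney gene and a gene not called (lactate dehydrogenase, phosphofructokinase and the organic anion carriers), and the fatty acid CoA ligases had Acsl1 (-2.88) and Acsl4 (-0.50, not called). The thyroid hormone receptors Thra (0.33) and Thrb (-0.80) were both not called, Slc38a3 (-5.91) and Slc38a4 (-8.18) were both higher in liver, and Acsm2 (10.19) and Acsm1 (2.61) were both higher in kidney.

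Ketone bodies are made in liver and burnt elsewhere. Of 5 ketone genes, 3 were higher in liver and 1 in kidney (median -1.35), but 1 and 2 with quantile normalization. The kidney gene, Oxct1, which is needed to use them, stood at 8.03, 8.0 and 8.12 in kidney against 0.30 and 0.05 in liver (7.87, adjusted p = 8.5e-09). Sterol and fatty acid synthesis was higher in liver for 15 of 23 genes and in kidney for 2 (median -1.63), led by Thrsp (-4.83), the desaturase Scd1 (-4.40) and the regulator Srebf1 (-3.50). The kidney members were Mvd (1.88) and malic enzyme, Me1 (1.47, second probe 0.83). Fatty acid oxidation had 8 of 28 genes higher in liver and 4 in kidney (median -0.65), but 5 and 6 with quantile normalization (median -0.16) and with normexp and quantile normalization (median -0.19), so the list has no settled side. The thiolase Acaa2 (-2.93) and Acsl1 (-2.88) were higher in liver, and Acsm2 (10.19), Acsm1 (2.61, second probe 0.03), Acsm3 (2.44) and Crat (1.54) in kidney.

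The respiratory chain was close to equal. Of 74 genes for its complexes, 1 was called, the heart and muscle type subunit Cox7a1, at 4.09, 4.16 and 4.40 against 1.55 and 1.43 (2.73). The median was 0.08, and 67 members lay within 0.5 of equality. With quantile normalization 14 were called and the median was 0.76, and with normexp and quantile normalization 10 and 0.64, so their equality depends on the scaling. The 49 members with a mean level of 6 to 8 had a median of 0.03, and the 644 other genes at that level had -0.49.

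Markers of most nephron segments were mostly higher in kidney, and the liver calls among collecting duct markers depended on the probe. In the proximal tubule, which takes back most of the filtrate, 12 of 13 markers seen on all 5 arrays were higher in kidney (median 4.66), where 11.6% of all such genes were, and 16 further markers were seen on the kidney arrays only. The endocytic receptors Lrp2 (megalin, at least 1873-fold) and Cubn (at least 502-fold), the brush border protease Mep1a (at least 2128-fold) and the phosphate carrier Slc34a1 (8.44, second probe 13.35) were among them. The marker not called was Slc22a30 (0.31). In the thick ascending limb, which dilutes urine, 10 of 12 markers were seen on the kidney arrays only, such as the potassium channel Kcnj1 (at least 394-fold) and the sodium-potassium-chloride cotransporter Slc12a1 (at least 216-fold). Slc12a1 stood at 4.02, 4.16 and 4.38 in kidney.

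In the distal segments 4 of 5 markers were higher in kidney, with Pvalb at 4.21. The vitamin D dependent calcium binders S100g and Calb1 were at least 1407- and 240-fold higher. Podocyte markers were higher for 4 of 5, among them Clic5 by 4.72, Wt1 by 3.05 and Synpo by 2.84, although other probes of Wt1 (0.73), Clic5 (-0.23) and Synpo (-0.74 to 3.39) differed. Nephrin, Nphs1, was at least 3.21-fold higher. Of 4 principal cell markers of the collecting duct seen on all 5 arrays, 1 was higher in kidney, 1 in liver and 2 were not called (median 0.55). Of 4 intercalated cell markers 3 were higher in kidney and 1 in liver. With the mean of passing probes, 2 principal cell and 4 intercalated cell markers were higher in kidney and 0 of either in liver. The water channel Aqp2 differed by 3.82 and Aqp3 was at least 210-fold higher in kidney, with 4.13, 4.15 and 4.17 on its arrays, while the urea carrier Slc14a2 was listed as higher in liver (-2.21) with other probes at 1.18 to 5.43. In the same way the intercalated cell exchanger Slc4a9 had -2.02 at its reported probe and 6.30 at another. Intercalated cells also showed Foxi1 (5.29) and the proton pump subunit Atp6v0a4 (at least 356-fold). A list of 10 genes for the high salt of the inner kidney, which also holds Gpx3 and Aqp1, had 7 higher in kidney. These included aldose reductase, Akr1b3 (3.28), and the inositol carrier Slc5a3 (3.07), and the betaine carrier Slc6a12 was higher in liver (-5.88). The count was 6 with median scaling, with normexp and quantile normalization and with the mean of passing probes. In these settings Hspa4l fell under the 2-fold threshold (0.99, 0.97 and 0.80).

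Transcription factors separated the tissues, with exceptions. Of 14 liver factors seen on all 5 arrays, 10 were higher in liver and 0 in kidney (median -2.63), led by Onecut2 (-8.10) and Hhex (-6.69), with Cebpa at -4.07. Foxa2 stood at 4.05 and 3.44 in liver and was at least 250-fold higher there, and Onecut1 was at least 501-fold higher. Hnf4a stood at 6.99, 7.06 and 7.10 in kidney and 7.18 and 7.33 in liver (-0.20), and was not called. Its relative Hnf4g was at least 2.31-fold higher in kidney, a call lost with normexp and quantile normalization (0.48).

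Kidney factors were higher in kidney for 7 of 9 seen on all 5 arrays (median 3.47), and 13 more were seen on the kidney arrays only. Emx2 was at least 105-fold higher, Irx3 at least 45.8-fold and Pax8 at least 63.4-fold. Pax2, a founding factor of the nephron, had its brightest probe at -3.71, -3.76 and -3.96 in kidney and 6.59 and 6.31 in liver (-10.26), while its other probes gave 1.05 to 1.55, so its direction rests on the probe. Hox genes, which record position along the body axis, were higher in kidney for 4 of 5 seen on all 5 arrays (median 2.53), and the remaining one was Hoxb3 (-0.80). Another 20 were seen on the kidney arrays only, 0 on the liver arrays only, and 10 on neither. Hoxd8 stood at 4.48, 4.33 and 4.38 and was at least 244-fold higher, Hoxb7 at least 127-fold and Hoxa10 at least 63.3-fold.

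Solute carriers, the largest family of transporters, had more members on the kidney side. Of 261 seen on all 5 arrays, 76 (29.1%) were higher in kidney and 49 (18.8%) in liver, against 11.6% and 15% of all genes, with a median of 0.11. Another 48 were seen on the kidney arrays only and 5 on the liver arrays only, and 64 on neither. The sodium-glucose carrier Slc5a2 of the early proximal tubule stood at 7.17, 7.16 and 7.17 in kidney and was at least 1699-fold higher (adjusted p = 3.76e-08). The lactate carrier Slc5a12 and the steroid and bile acid exporter subunit Slc51a were at least 652- and 659-fold higher. Slc22a12, the urate exchanger, was at least 344-fold higher, Slc34a3 at least 455-fold and the glutamate carrier Slc1a1 at least 312-fold. In liver, Slco1b2 stood at 7.52 and 7.75 and was at least 3703-fold higher (adjusted p = 2.87e-08), though a second probe gave -5.88. The mitochondrial carrier Slc25a47 differed by -9.23 and the phosphate carrier family member Slc17a2, seen on 1 of 3 kidney arrays, by -9.61.

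**Figure D5:**
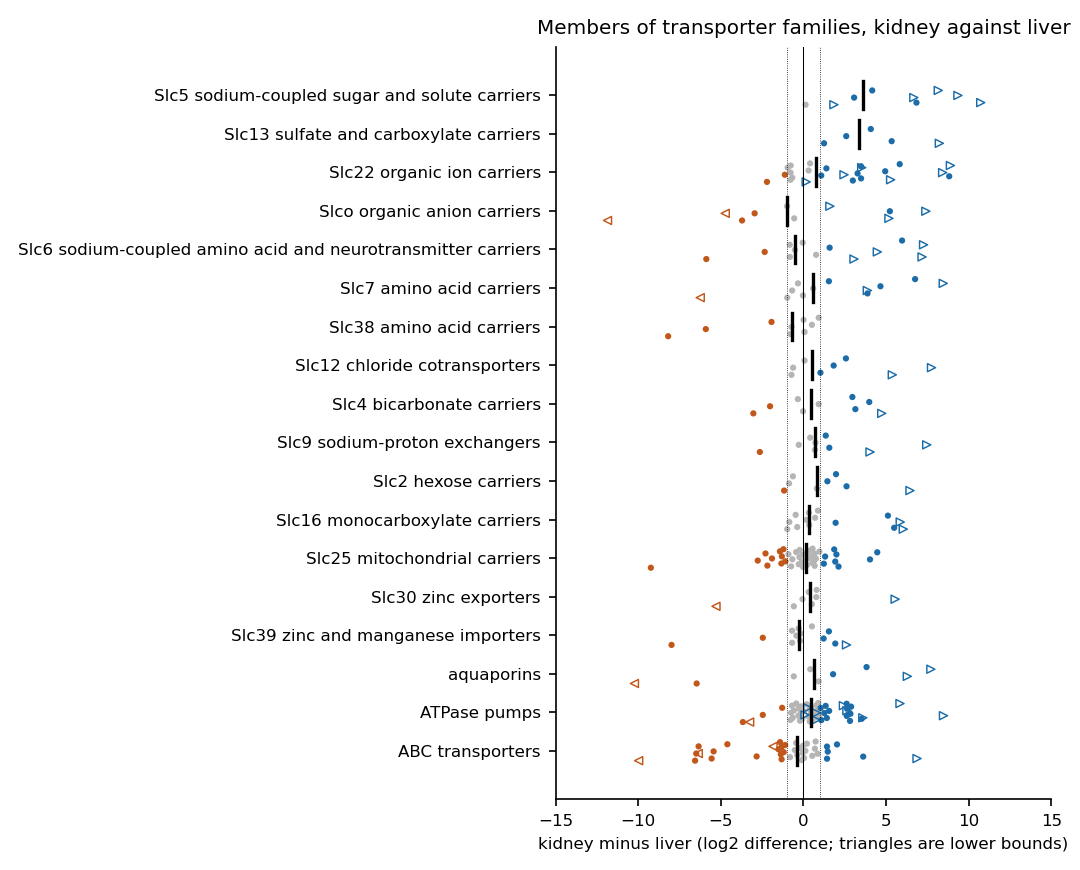
Kidney minus liver difference (log2) for members of 18 transporter families, with symbols as for the gene lists: dots for genes on all 5 arrays, bars for their median, open triangles for bounds. Slc5 and Slc13 carriers lie to the right of 0, the Slc38 family has its 3 called members on the left, and the Slc25 carriers of mitochondria lie on both sides.

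Families of carriers differed in their split. In Slc5, sodium-coupled sugar and solute carriers, 3 of 4 genes on all 5 arrays were higher in kidney and 5 more were seen there only. All 4 Slc13 sulfate and carboxylate carriers were higher in kidney, from Slc13a3 (5.34) to the citrate carrier Slc13a5, which was not called with normexp and quantile normalization (0.81), and Slc13a1 was at least 299-fold higher. Slc13a4 stood at 1.03, 1.37 and 2.52 in kidney, highest at the high dose. Organic ion carriers of family Slc22 were higher in kidney for 9 of 18 and in liver for 2. The organic anion carrier Slc22a6 stood at 7.62, 7.66 and 7.61 against -0.92 and -1.46 (8.82). Its relative Slc22a7 spread over the kidneys, at 4.88, 4.42 and 3.04 against 4.80 and 4.77 in liver, and was not called (-0.68, adjusted p = 0.256). The cation carrier Slc22a2 was at least 476-fold higher in kidney.

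Amino acid carriers were divided. Of 9 Slc6 genes on all 5 arrays, 2 were higher in each tissue and 5 not called, and of 9 Slc7 genes 4 were higher in kidney and 5 not called. The proximal tubule carriers Slc6a19 and Slc7a13 were at least 145- and 352-fold higher in kidney, Slc7a9 differed by 6.76, and Slc7a2 was at least 75.8-fold higher in liver. Slc38 carriers were higher in liver for 3 of 9 and in kidney for 0, with 6 not called, and Slc38a4 stood at -1.17, -1.11 and -1.19 against 7.09 and 6.96 (-8.18). Mitochondrial Slc25 carriers had members on both sides, 8 of 41 higher in kidney and 10 in liver, with the ADP/ATP carrier Slc25a4 (4.03) and the aspartate-glutamate carrier Slc25a13 (-1.42) on either side. Of 12 bile and sinusoidal transporters on all 5 arrays, 6 were higher in liver and 2 in kidney. Liver had Abcb4 (-6.56) and Abcc3 (-6.48). The bile salt pump Abcb11 stood at 7.28 and 7.01 in liver and was seen on 1 kidney array (-11.25). The sterol pump subunit Abcg5 was at least 1003-fold higher in liver, and its partner Abcg8 differed by -5.56. Slc10a1, the sodium-dependent bile acid carrier best known from hepatocytes, was bright in both tissues, at 9.68, 9.60 and 9.55 against 9.96 and 9.999 (-0.37), and was not called.

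ABC pumps were higher in liver for 14 of 34 and in kidney for 5 (median -0.41), the kidney ones led by the nucleotide and drug exporter Abcc4 (3.62). Among 42 ATPase pumps 13 were higher in kidney and 3 in liver (median 0.46). The kidney ones included the sodium pump beta subunit Atp1b1, which stood at 6.88, 7.06 and 7.07 against 3.35 and 3.60 (3.53), and proton pump subunits such as Atp6v1b2 (2.82) and Atp6v1a (2.62).

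Of 12 Slc39 metal importers on all 5 arrays, 3 (25%) were higher in kidney and 2 (16.7%) in liver. The shares over all such genes were 11.6% and 15%. Of 6 Slc30 exporters 0 were called. Slc39a4, a zinc importer, stood at -3.43, -1.16 and -2.07 in kidney and 5.70 and 5.82 in liver (-7.98, adjusted p = 3.42e-05), and the low-dose kidney was the highest kidney. The broad metal importer Slc39a14 was higher in liver (-2.46), and Slc30a10, a manganese exporter, was at least 39.2-fold higher there. Slc39a5 was at least 6.09-fold higher in kidney, and Slc30a2 at least 46.9-fold. Of 29 heme, iron and metallothionein genes, 5 (17.2%) were higher in kidney and 9 (31%) in liver (median -0.42). The iron hormone hepcidin, Hamp, was at 7.39 and 7.28 in liver and at least 3012-fold higher, and the transferrin receptor Tfr2 differed by -9.97. The heme enzymes Alas1 (-2.23) and Alad (-1.41), the latter a known target of lead, were higher in liver. Kidney had more of the signal Bmp6 (2.61) and the copper-dependent iron oxidase Heph (1.94).

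Metallothioneins, small proteins that bind zinc and toxic metals, depended on the liver array. Mt1 stood at 6.36, 6.64 and 7.63 in kidney and at 4.06 and 7.16 in liver, and Mt2 at 4.65, 4.89 and 5.86 against 2.21 and 5.19. The high-dose liver lay far above the control liver and the tissues overlapped, so neither was called (1.26, adjusted p = 0.228, and 1.44, adjusted p = 0.162). Without the high-dose liver the differences were 2.82 and 2.93 and both were called, with the lone liver array assumed to vary like the kidneys. Without the control liver they were -0.29 and -0.05 and not called.

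Hormone systems had members on both sides. Of 10 renin-angiotensin genes seen on all 5 arrays, 4 were higher in kidney and 1 in liver (median 0.41), and of 16 hormones and receptors 3 and 9 (median -1.42). Angiotensinogen, Agt, stood at -2.56, -2.85 and -1.53 in kidney against 6.74 and 6.92 (-9.14), and its processing enzymes were higher in kidney: Ace by 4.93 and renin, Ren1, by 2.24. Of 5 vitamin D genes on all 5 arrays, 1 was higher in kidney and 3 in liver. The plasma carrier Gc was higher in liver (-7.30), and stood at 1.63, 1.5 and 4.53 in kidney. The receptor Vdr was at least 170-fold higher in kidney. Cyp27b1, the activating enzyme, differed by 1.73 and was highest in the high-dose kidney (-1.5, -1.51 and -0.35). The coreceptors split, with Kl at least 325-fold higher in kidney and Klb, at 1.55 and 1.76 in liver, differing by -5.49. Growth factor Igf1 was higher in liver (-7.81), the parathyroid hormone receptor Pth1r (4.72) in kidney, and the vasopressin receptors divided into Avpr2 (4.99, seen on 1 liver array) and Avpr1a (-2.68).

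Junction and epithelial adhesion genes were divided, with 8 of 19 higher in liver and 3 in kidney (median -0.76). Keratin Krt18 stood at 2.67, 2.92 and 3.21 in kidney and 7.70 and 7.42 in liver (-4.63), and liver also had more of N-cadherin, Cdh2 (-4.62), Cldn3 (-4.56) and the gap junction protein Gjb1 (-4.53). Kidney had more of E-cadherin, Cdh1 (1.99), and the pore-forming claudin Cldn2 (1.92). Another pore former, Cldn10, stood at 4.70, 4.75 and 4.63 in kidney and was at least 305-fold higher. Cldn7 differed by 2.23, but by -0.59 with the mean of its probes. Water channels also divided: Aqp1 differed by 1.79, Aqp8 by -6.46, and Aqp9 was at least 1198-fold higher in liver, where another probe gave -1.21.

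Markers of other cells moved with tissue too. Kupffer cells are the macrophages of liver, and 6 of 7 macrophage markers on all 5 arrays were higher there (median -2.35), while Clec4f and Cd5l were at least 299- and 338-fold higher. Liver sinusoid markers were led by Stab2 (-3.57), and stellate cell markers by Reln (-5.04) and Colec11 (-4.93). All 3 neutrophil genes seen on all 5 arrays were higher in liver, led by Camp (-1.92). S100a8 (-1.19) and S100a9 (-1.10) lost their calls with normexp and quantile normalization (-0.73 and -0.96), without the high-dose kidney (-0.89 and -0.85) and without the control liver (-0.83 and -0.71). Liver also had more of 1 of 4 lymphocyte genes, Cd3e (-1.32), and the other lymphocyte genes were not called. Matrix genes had 3 of 8 higher in liver, led by Lum (-3.40), and 1 in kidney, Fbln1 (1.16, other probes -0.52 to 1.67), which was not called with normexp and quantile normalization (0.62) or with the mean of its probes (0.77). All 3 skeletal muscle genes were not called. Endothelial markers were mixed, with Emcn higher in kidney (3.45) and Ehd3 in liver (-2.17). Fat markers were higher in kidney: Fabp4 stood at 4.31, 4.14 and 3.79 against 1.35 and 1.16 (2.83, or 2.72 without the control kidney), and adiponectin, Adipoq, was at least 21.2-fold higher. Of the fat list, 8, 7 and 8 of 8 genes were well above background on the kidney arrays and 4 and 3 on the liver arrays. Of 4 blood genes, 1 was called, the red cell enzyme Alas2, higher in liver (-3.56), and Hba-a1 (-0.31) was not called. The blood list median was -0.30 but 0.31 with quantile normalization.

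Adrenal and sperm genes rested on single kidney arrays. The steroid hydroxylase Cyp21a1 stood at 1.92, -1.79 and -1.48 in kidney against 1.57 and 2.19 in liver and was not called (adjusted p = 0.0901). Without the control kidney it was called at -3.52. Star stood at -0.24, -3.03 and -2.99 against -2.47 and -2.54 and was not called, and its difference turned from 0.41 to -0.51 without the control kidney, again not called. Protamine 1, Prm1, which packs sperm DNA, stood at 0.42, -0.95 and 3.84 against -1.64 and -1.30 and was not called (2.57, adjusted p = 0.111). It was called without the high-dose kidney (1.20) and without the low-dose kidney (3.60). The median over 3 sperm genes was 1.69, and 0.40 without the high-dose kidney. The uroplakin Upk3a stood at -2.88, -0.41 and -0.58 in kidney, lowest in the control, and was at least 4.84-fold higher than in liver.

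The tissue difference itself changed little between the control and the high-dose pairs. It moved by a median of 0.17 over the 18179 genes and by at least 2-fold in 379 of them (2.08%). Among the 180 called genes that moved this far, 135 were liver genes, against 2730 of all 4847 called genes seen on all 5 arrays. The gap was smaller at the high dose in 100 of the 135 liver genes and in 21 of the 45 kidney genes. The liver genes with a smaller gap included Serpina1e, a protease inhibitor of a cluster of close copies. It stood at 1.48, 1.88 and 4.95 in kidney against 10.77 and 10.74, with gaps of -9.29 at control and -5.79 at the high dose. Ces1g, a carboxylesterase, went from -6.78 to -4.10. On the kidney side, the deubiquitinase gene Usp2 stood at 3.51, 3.50 and 3.53 in kidney and -1.61 and 1.03 in liver, with gaps of 5.12 and 2.49. These 3 genes were chosen after their values were seen, and each pair is 1 array against 1, with no test. The liver-defining genes had a higher median level, but not a higher sum of unlogged levels, in the high-dose kidney. Their part in these gaps was not tested.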

How the data were processed

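RNA from small pieces of tissue, 50 ng per array, was labelled with Cy3 and hybridised to 1-colour Agilent arrays, per the labels. The submitters' processing notes name Agilent Feature Extraction, version 12.0.3.1. The authors' deposited files hold background-subtracted intensity per spot. The deposited value table, a ratio of the processed signal to the array's 75th percentile of all spots by comparison of the files, gave the same calls. Spots were averaged per probe (59305 spots, 56605 probes), log2-transformed and centred on each array's 75th percentile. The brightest passing probe stood for a gene. Names came from RefSeq accessions for 32989 probes, and 23616 kept the file's name. limma 3.58.1 (R 4.3.3) fitted tissue over the 5 arrays, with 3 residual degrees of freedom, and the number of arrays limits the precision. The fit was tested on simulated data of 21812 genes, with 50 genes changed by each of the log2 differences 1.25, 1.5, 2 and 3. It called 96% of those changed by 1.5, with 1 false call among the unchanged genes. The noise was drawn from the fit's own variances, and far fewer genes were changed than the 34.4% called here. The false-call count therefore cannot be read as that of these 5 arrays.

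Genes named were the 10 largest differences and 8 largest bounds in each direction, the related pairs, up to 8 members per list with the largest difference and any member against its list by at least 1, and the 10 largest transporters in each direction. Acox2, Alad, Alas1, Amacr, Apoe, Asl, Atp6v1a, Atp6v1b2, C3, Car15, Cebpa, Ces1g, Cldn3, Cyp1a2, Cyp2e1, Cyp2f2, F13b, Fbp1, Fga, G6pc, Gjb1, Gsdmc2, Hnf4a, Hoxb3, Hpd, Mttp, Nr1h4, Pck1, Plg, Serpina1e, Slc10a1, Slc22a30, Tat and Usp2 fall outside this rule and were chosen after their values were seen. The members and lists were chosen with earlier results of these data known. Alternatives covered scaling, background correction, filters, probe choice, dose terms and leaving out each array. Probe positions in the files are not printed, and promoter coordinates are GRCm38.p6. Some members of the lists are not reported here by name, but count in the totals.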

Additional observations from a re-analysis of the deposited data

Results flagged for a closer look

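Kidney and liver differed in opposite directions at control and at the high dose, by at least 2-fold each, for 3 genes seen on all 5 arrays, of which 1 carries only a clone name. Myc, a growth-related transcription factor, stood at -2.46, -2.93 and -1.90 in control, low-dose and high-dose kidney and at -1.42 and -3.18 in control and high-dose liver. The kidney minus liver difference was -1.04 at control and 1.28 at the high dose, a change of 2.32. Sprr1a, an envelope protein of lining epithelia, stood at -2.63, -0.14 and 0.28 in kidney and at -1.43 and -1.26 in liver, with -1.20 at control and 1.54 at the high dose, a change of 2.74. Over all doses it was not called (0.52), and it was called at 1.42 without the control kidney. It is 1 of the urothelium markers, whose unlogged levels summed to a log2 of 0.38 in the control kidney. That sum was 1.93 and 1.97 in the exposed kidneys, and the part of these markers was not tested. Each value rests on 1 array per tissue and dose, and neither change was tested.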

How the results depend on the processing

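The count of called genes was 7503 and lay between 7449 and 7549 with median scaling, quantile normalization and the mean of passing probes, and between 7488 and 7855 when each array was left out in turn. Requiring all 5 arrays left 4865 calls (2126 higher in kidney), and a threshold of 2 on the log2 scale left 3878 (2166 higher in kidney, 1712 in liver). Normexp and quantile normalization gave 5214, of which 2285 were higher in liver. Without a filter on dim probes 9411 were called. Quantile normalization moved the median over all genes from -0.15 to -0.03. The mean of passing probes turned Cldn7 (-0.59), Cyp2c55 (-0.50), Slc14a2 (1.47) and Slc4a9 (2.14). Requiring all 5 arrays turned Magi2 (-0.24), Pax2 (1.55) and Slco4a1 (-0.64), and normexp and quantile normalization turned Slc14a2 (2.54). Leaving out each array in turn, Pax2 ranged from -10.32 to 1.57, Slc14a2 from -2.46 to 5.76 and Slco4a1 from -0.69 to 7.34; the first 2 turned without either liver array and Slco4a1 without each of the kidney arrays. For these the reported probe changes with the filter. No paired analysis was possible by mouse, because the labels tie no kidney to a liver. Arrays matched by dose, with dose as a block, gave 7462 calls. With 1 liver array left out, the other is assumed to vary like the kidneys. Without the high-dose kidney, plasma proteins, apolipoproteins, coagulation and complement genes stayed lower in kidney. Signal over background on the liver arrays limits what can be seen of dim genes there.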

Other observations

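The difference between the tissues varied with the level of a gene. Over genes seen on all 5 arrays, the median difference was -0.40 for 2467 genes with a mean level up to -2, -0.08 for 4756 genes between 0 and 2, and -0.55 for 144 genes above 8.

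Limits set after the values were seen (liver level at least 7, kidney 2.7 to 3.7 below liver, brain 3.3 to 4.5 below) hold 50 genes, and the liver and kidney limits alone hold 62. The limits fix their direction and their spread. Their median was -3.29 for kidney minus liver and -4.06 for brain minus liver. Of the 27 with other probes, 19 had every other probe above -1. The receptor gene Nrp2 stood at 4.10, 4.18 and 4.04 in kidney and 7.70 and 7.57 in liver, while its other probes gave 0.23 to 0.58. The nucleolar factor gene Ubtf stood at 6.08, 6.11 and 6.0 against 9.07 and 8.97, with other probes at 0.07 to 0.44.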
